A study of Mus musculus with 6 samples.

Results

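Liver RNA was examined for 10 genes of acute phase plasma proteins, chosen by gene name: the serum amyloid A genes Saa1, Saa2, Saa3 and Saa4, the orosomucoid genes Orm1, Orm2 and Orm3, haptoglobin (Hp), hemopexin (Hpx) and lipocalin 2 (Lcn2). All 10 are among the 55401 genes of the deposited table, each as a single entry, and all 10 passed the filter on low counts that left 18931 genes for testing. The livers came from 6 male mice that were fed MCD for 5 weeks from 8 weeks of age. MCD is not spelled out in the labels and commonly means methionine- and choline-deficient. Of these mice, 3 carried Prdx1(lox/lox), floxed alleles of the peroxide-reducing enzyme peroxiredoxin 1, without Cre and are called control. The other 3, called knockout, carried Prdx1(lox/lox);Alb-cre, the same alleles with Cre recombinase under the albumin promoter, which is active in hepatocytes.

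The controls carried no Cre, so effects of the transgene and of Prdx1 loss cannot be told apart. All mice analysed here were on MCD, and whether a difference depends on the diet was not tested. The p-values measure the spread among these 6 mice, since the labels give no litter, batch or date. Deposited counts totalled from 58790874 to 78291273 per library. Prdx1 itself fell from 626 ± 49.5 to 88.3 ± 19.6 CPM (CPM, the count relative to the TMM-scaled library total, as mean ± SD with n = 3 per group throughout), in the direction of the labels, with 644, 570 and 663 CPM in the single controls and 78.7, 111 and 75.4 CPM in the single knockouts. Whole-liver RNA was measured, so fewer hepatocytes and less RNA per hepatocyte cannot be told apart. The summed level of 10 hepatocyte markers ranged from 88940 to 109987 CPM in the controls and from 52113 to 66100 CPM in the knockouts. Of these markers, Alb, Ttr and Serpina1a are also acute phase genes. In edgeR 9 of the 10 fell, beside 18% of all tested genes, and 5 with library sizes alone, beside 1249 of 18931 genes.

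The acute phase response is the change in plasma protein synthesis that hepatocytes make during inflammation or injury. Interleukin 6 acts through its receptor, JAK kinases and the transcription factor STAT3, and interleukin 1 acts through NF-kB, while C/EBP factors bind many of the target promoters. Positive acute phase proteins such as serum amyloid A then rise in plasma, and negative ones such as albumin and transthyretin fall.

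Both multigene families lie in compact clusters. Saa3, Saa4, Saa1 and Saa2, in this order, span 42.3 kb of chromosome 7 (GRCm38) with the pseudogene Saa-ps among them. Saa3 (46711998 to 46715700), Saa4 (46727998 to 46732603) and Saa1 (46740497 to 46742980) lie on the minus strand and Saa2 (46751790 to 46754313) on the plus strand. Orm1 (63344560 to 63348163), Orm3 (63356162 to 63359511) and Orm2 (63362449 to 63365878) span 21.3 kb of the plus strand of chromosome 4, with the pseudogene Gm11212 among them. Hp lies on chromosome 8 (109575128 to 109579172), Hpx on chromosome 7 (105591613 to 105600137) and Lcn2 on chromosome 2 (32384633 to 32387797), all on the minus strand.

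RefSeq promoter sequences of GRCm38.p6 were matched for 8 members, all but Orm1 and Hp. The windows hold the 250 bases before the RefSeq start, which lies inside the gene interval of the deposited table for Saa2, Saa3, Hpx and Lcn2, so these windows run into that interval. In them, Saa1 and Saa2 were identical at 94.8% of aligned positions and Orm2 and Orm3 at 85.5%. A C/EBP-type motif, TTGCNNAA on either strand, was present in all 8 windows, with 2 matches in Saa4, against 9.6% of 32851 promoter windows of the same length in the whole table. The letters TTCNNNGAA (STAT3), the run GGG, 2 of any base, TT, 1 of any base and CC (NF-kB) and GTTAAT (HNF1), on either strand, were in none of the 8 windows and in 7.0%, 4.1% and 6.4% of all windows. The motifs were written down after these promoters had been seen, so setting the 8 windows beside all windows is no test. No enrichment or absence is read from it. The similar windows of Saa1 and Saa2, and of Orm2 and Orm3, are also not separate cases. A match is a string of letters and not a measured binding site. The windows of Saa1 and Saa2 are shown as a near-identical pair, that of Saa4 as the member with the clearest fall, and those of Orm2 and Lcn2 as members with higher knockout means. They are given 5′ to 3′ with the C/EBP-type matches in capitals.
Saa1, chr7:46742981-46743230, minus strand: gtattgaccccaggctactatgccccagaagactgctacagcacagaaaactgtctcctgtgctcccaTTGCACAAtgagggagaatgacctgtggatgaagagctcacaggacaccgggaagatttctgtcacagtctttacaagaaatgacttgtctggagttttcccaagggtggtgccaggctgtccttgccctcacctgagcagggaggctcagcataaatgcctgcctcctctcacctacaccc
Saa2, chr7:46751583-46751832, plus strand: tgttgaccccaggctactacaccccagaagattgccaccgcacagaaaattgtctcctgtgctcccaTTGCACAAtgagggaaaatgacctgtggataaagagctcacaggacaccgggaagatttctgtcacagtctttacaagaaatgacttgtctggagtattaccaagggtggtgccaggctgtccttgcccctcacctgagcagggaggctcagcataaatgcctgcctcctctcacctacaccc
Saa4, chr7:46732604-46732853, minus strand: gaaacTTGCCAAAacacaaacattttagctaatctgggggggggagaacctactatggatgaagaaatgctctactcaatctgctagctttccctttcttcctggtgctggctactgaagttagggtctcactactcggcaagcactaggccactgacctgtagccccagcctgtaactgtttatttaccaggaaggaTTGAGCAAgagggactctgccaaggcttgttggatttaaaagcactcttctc
Orm2, chr4:63362199-63362448, plus strand: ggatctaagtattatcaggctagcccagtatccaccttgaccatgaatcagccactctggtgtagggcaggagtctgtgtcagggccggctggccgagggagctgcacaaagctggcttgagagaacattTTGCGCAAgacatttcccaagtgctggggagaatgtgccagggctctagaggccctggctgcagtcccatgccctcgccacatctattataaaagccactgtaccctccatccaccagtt
Lcn2, chr2:32387740-32387989, minus strand: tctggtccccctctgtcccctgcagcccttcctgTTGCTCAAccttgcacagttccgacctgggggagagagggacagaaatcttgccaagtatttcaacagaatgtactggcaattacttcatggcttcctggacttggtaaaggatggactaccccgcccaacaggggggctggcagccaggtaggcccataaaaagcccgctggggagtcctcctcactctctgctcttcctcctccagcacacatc

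The 10 genes did not move as a block. With Benjamini-Hochberg adjusted p-values over all tested genes from edgeR's quasi-likelihood test, Saa4, Hp and Hpx were lower in the knockouts and Lcn2 was higher, while Saa1, Saa2, Saa3, Orm1, Orm2 and Orm3 did not pass the threshold of 0.05. Thus 3 of 10 were called lower and 1 of 10 higher, against 18% and 19.9% of all tested genes, or 4 of 10 against 37.9% in either direction. The same 4 members had groups that did not overlap in CPM, 3 lower and 1 higher, against 24.2% lower and 28.8% higher (53% in all) of the tested genes. The median log2 fold change of the 10 was -0.65, against 0.05 over all tested genes. It was not particular to the 10, since the hepatocyte markers had a median of -0.70 and negative acute phase genes one of -0.66. The count of lower members was 5 without knockout replicate 3 and 2 without knockout replicate 1 or without knockout replicate 2. With library sizes alone it was 2, and in limma on log2(FPKM + 0.5) it was 1. The count of higher members was 0 without control replicate 1 or without control replicate 3. It was 2 without knockout replicate 1, with library sizes alone and in limma on log2(FPKM + 0.5).

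**Figure D1:**
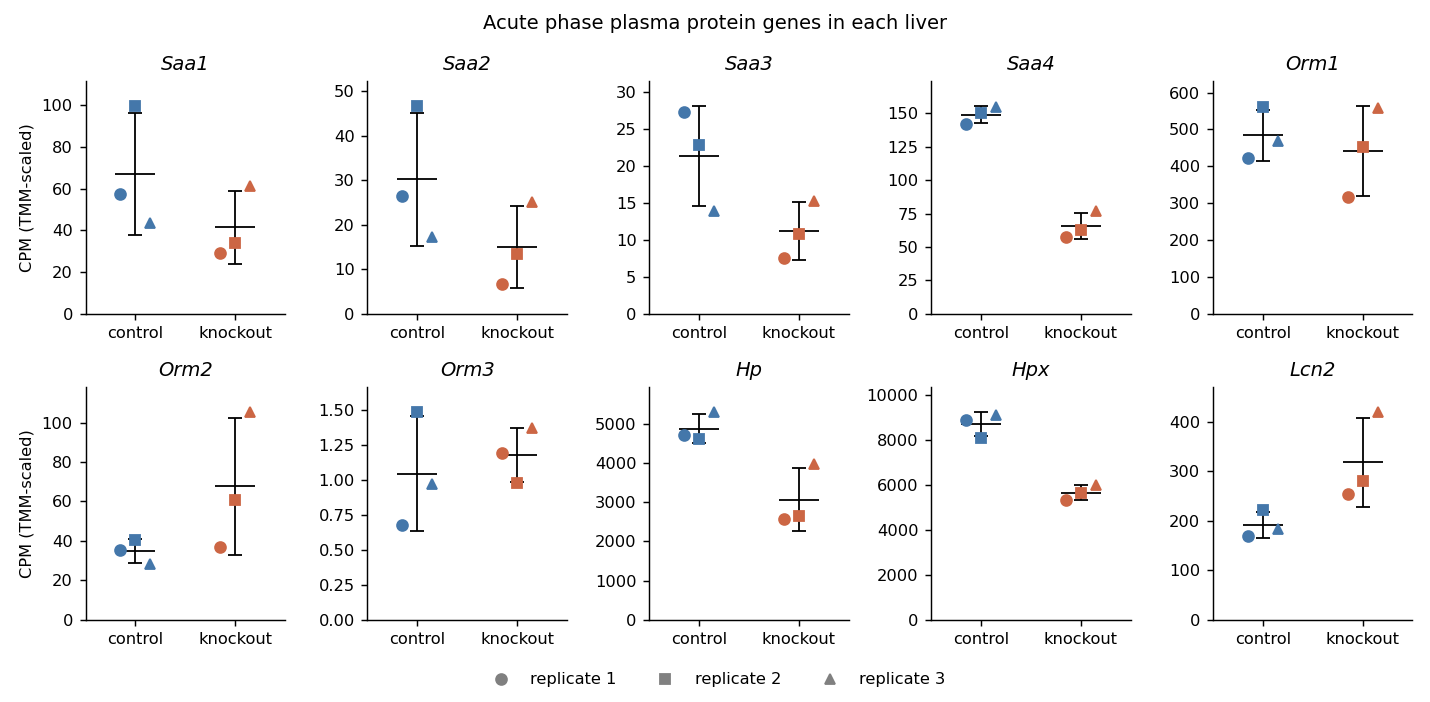
CPM of the 10 genes in each of the 3 control and 3 knockout livers, on linear axes that start at 0. Points are libraries with the replicate number as the symbol, horizontal bars are group means and whiskers are SD. Control and knockout points are separate for Saa4, Hp, Hpx and Lcn2 and overlap for the other 6 genes.

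Serum amyloid A proteins are small apolipoproteins of high-density lipoprotein. Saa1 and Saa2 encode the strongly inducible hepatic forms, Saa3 is also made by macrophages and adipocytes, and Saa4 encodes the constitutive form. Saa4 was at 142, 150 and 155 CPM in the controls and 57.5, 62.5 and 76.7 CPM in the knockouts. Every control lay above every knockout, and the knockout mean was 0.440 of the control mean. Its log2 fold change was -1.19 ± 0.12 (SE, edgeR adjusted p = 0.00032). Saa4 stayed below the threshold in all 15 alternative fits, with log2 fold changes from -1.30 to -0.82.

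The inducible forms had larger coefficients of variation. Saa1 was at 57.2, 99.7 and 43.6 CPM in the controls and 29.0, 33.8 and 61.5 CPM in the knockouts. Knockout replicate 3 lay above 2 of the controls, so the groups overlapped. Saa2 was at 26.6, 46.7 and 17.3 CPM in the controls and 6.76, 13.3 and 25.1 CPM in the knockouts, with the same libraries highest in each group. The coefficients of variation of Saa1 were 43.8% in the controls and 42.3% in the knockouts, and those of Saa2 were 49.8% and 61.6%, against 4.34% and 15.2% for Saa4. The log2 fold change was -0.69 for Saa1 (95% interval -1.54 to 0.16, edgeR adjusted p = 0.181) and -1.003 for Saa2 (-2.17 to 0.16, adjusted p = 0.159). Without knockout replicate 3, Saa2 stood at -1.57 and passed (adjusted p = 0.0455), and Saa1 stood at -1.08 (adjusted p = 0.0507). Without control replicate 2 they stood at -0.28 and -0.54.

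Saa3 was at 27.3, 22.8 and 13.9 CPM in the controls and 7.52, 10.8 and 15.3 CPM in the knockouts. Knockout replicate 3 lay just above the lowest control. The log2 fold change was -0.93 ± 0.31 (SE), on the edge of the threshold (edgeR adjusted p = 0.0503, 0.0473 with RLE factors). DESeq2 called it (adjusted p = 0.00819). It also passed without control replicate 3 (0.0226) and without knockout replicate 3 (0.0297). The summed level of 12 macrophage markers went the other way, from 1256 to 1526 CPM in the controls to between 3147 and 3408 CPM in the knockouts. The summed level of 6 adipocyte markers went the same way as Saa3, from 66.1 to 118 CPM in the controls to between 29.5 and 41.7 CPM in the knockouts. Of these, Cidec, which fat-laden hepatocytes also express, fell by 2.28 on the log2 scale. Fabp4 did not pass, although each knockout lay above each control. With library sizes alone and in limma on log2(FPKM + 0.5), Fabp4 was called higher. Plin1 was not tested, and Adipoq, Lep and Retn were at 0 in all libraries. The part of these cells in the level of Saa3 was not tested.

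Per length of transcript, Saa4 was the most abundant serum amyloid A gene in both groups, at 57.3 ± 2.31 FPKM (the authors' length-normalised values) in the controls and 32.0 ± 3.88 FPKM in the knockouts. Saa1 followed at 21.6 ± 9.21 and 17.0 ± 6.63 FPKM, Saa2 at 9.61 ± 4.68 and 6.05 ± 3.56 FPKM and Saa3 at 6.58 ± 2.12 and 4.38 ± 1.40 FPKM. The spreads of Saa2 and Saa3 overlapped in both groups. Saa1 exceeded Saa2 in each library, 2.19, 2.17 and 2.56 times in the controls and 4.37, 2.58 and 2.49 times in the knockouts, on the FPKM scale. The longest coding transcripts of Saa1 and Saa2 were identical at 87.3% of aligned positions. No 150-base stretch of a member's coding transcripts, the read length in the labels, recurred exactly in a transcript of another gene. Reads with few differences can still be split between such copies by the counting, so single values of Saa1, Saa2 and the Orm genes are uncertain to that extent.

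Orosomucoids, or alpha-1-acid glycoproteins, are plasma lipocalins that carry small lipophilic molecules and drugs. The 3 genes differed in level and in fold change. Orm1 dominated the family, at 422, 560 and 469 CPM in the controls and 315, 453 and 558 CPM in the knockouts. Its groups overlapped almost fully, and its log2 fold change was -0.13 (95% interval -0.60 to 0.34, edgeR adjusted p = 0.665). Its sign turned to 0.23 with library sizes alone, to 0.19 in limma on log2(FPKM + 0.5) and to 0.068 without knockout replicate 1. Minus the median over all genes, Orm1 stood at -0.18 under TMM, -0.18 under library sizes alone and -0.057 in limma on log2(FPKM + 0.5). It lay just above that median in limma on log2(FPKM + 1), at 0.003, and without knockout replicate 1, at 0.0098.

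Orm2 was at 35.5, 40.6 and 28.4 CPM in the controls and 37.1, 60.7 and 105 CPM in the knockouts. Replicates 2 and 3 of the knockouts lay above all controls, while replicate 1 lay within their range. The knockout mean was 1.94 times the control mean and the log2 fold change 0.96 ± 0.34 (SE), which did not pass (edgeR adjusted p = 0.0606). Orm2 passed in DESeq2 (0.00818), with library sizes alone (0.0135), in limma on log2(FPKM + 0.5) (0.0290) and without knockout replicate 1 (0.0128). Without knockout replicate 3 the value was 0.50 (adjusted p = 0.165). Of the summed FPKM of the 3 genes, Orm2 made up 10.5%, 11.8% and 15.8% in the knockouts, against 7.75%, 6.74% and 5.70% in the controls, so that each knockout lay above each control. This share was computed after the single values had been seen and was not tested. The coding transcripts of Orm1 and Orm2 were identical at 91.0% of aligned positions.

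Orm3 had the lowest level of the family, at 0.678, 1.49 and 0.975 CPM in the controls and 1.19, 0.982 and 1.37 CPM in the knockouts. These rest on deposited counts of 38 to 116, and what 1 deposited count stands for is not given in the sources used here. Its log2 fold change was 0.17 (95% interval -0.79 to 1.14, edgeR adjusted p = 0.781), and -0.060 without control replicate 1.

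Haptoglobin binds free haemoglobin, and hemopexin binds free haem. They were the most abundant members, with Hpx at 4671 ± 336 FPKM ranking 10 among all genes in the controls and Hp at 2442 ± 197 FPKM ranking 27. Hpx was at 8901, 8095 and 9101 CPM in the controls and 5345, 5618 and 5996 CPM in the knockouts. The groups were separate, with coefficients of variation of 6.12% and 5.78%. The log2 fold change of Hpx was -0.62 ± 0.09 (SE, edgeR adjusted p = 0.00158). Hp was at 4705, 4620 and 5297 CPM in the controls and 2558, 2652 and 3984 CPM in the knockouts. Knockout replicate 3 stood apart from the other knockouts but still lay below the lowest control. The log2 fold change of Hp was -0.67 ± 0.17 (SE, edgeR adjusted p = 0.0191). Together the 2 genes made up 91.1% ± 1.61 of the members' summed FPKM in the controls and 87.3% ± 2.09 in the knockouts.

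The hepatocyte markers had a median log2 fold change of -0.70 with 9 of 10 lower, against -0.33 with 5 of 10 lower under library sizes alone and -0.35 with 5 of 10 lower in limma on log2(FPKM + 0.5). Their part in the falls of Hp and Hpx was not tested. With library sizes alone the value of Hp was -0.31 (adjusted p = 0.151) and that of Hpx -0.26 (0.0471), and in limma on log2(FPKM + 0.5) they were -0.35 (0.167) and -0.27 (0.165). Hp also missed the threshold when control replicate 3 (0.0614), knockout replicate 1 (0.0616) or knockout replicate 2 (0.0710) was left out.

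Lipocalin 2 binds bacterial siderophores and so withholds iron, and hepatocytes, neutrophils and injured epithelia make it. Lcn2 was at 169, 222 and 184 CPM in the controls and 254, 281 and 420 CPM in the knockouts. Every knockout lay above every control, and the knockout mean was 1.66 times the control mean. The log2 fold change was 0.73 ± 0.20 (SE, edgeR adjusted p = 0.0217). The call was lost without control replicate 1 (0.0790) and without control replicate 3 (0.0665).

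Some markers of other cell types that make lipocalin 2 also rose. Of 12 neutrophil markers, 7 were tested, 3 rose and 0 fell. That is 42.9% called, near the 37.9% of all tested genes in either direction, of which 19.9% were higher. The summed level of the 12 was 16.8 to 21.7 CPM in the controls and 36.8 to 45.7 CPM in the knockouts. The defining markers Camp and Ly6g were at 0 in all libraries, and Mpo and Elane reached at most 0.0589 and 0.137 CPM. All 8 ductular markers rose, with a summed level of 64.6 to 80.1 CPM in the controls and 1126 to 1312 CPM in the knockouts. The ductular sum was highest in knockout replicate 2 and the neutrophil sum in knockout replicate 3. Knockout replicate 3 was the highest knockout for all 10 members, Lcn2 among them, and for 9 of 10 hepatocyte markers. That order is therefore not particular to Lcn2 or to neutrophil markers. The part of neutrophils and ductular cells in the Lcn2 level was not tested.

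Among the knockouts, the members kept nearly the same order of mice. Knockout replicate 3 had the highest CPM for 10 of 10 members, against 34.6% of all tested genes. Knockout replicate 1 had the lowest for 9 of 10, against 33.4%, the exception being Orm3. The counts were 10 and 9 again under library sizes alone and FPKM, where 25.5% and 26% of tested genes were highest in knockout replicate 3. The log2 distance of knockout replicate 3 from its group mean was largest for Saa2 at 0.93, Orm2 at 0.77 and Saa1 at 0.65 and smallest for Hpx at 0.09. In the controls the highest library was replicate 2 for 6 members, replicate 3 for 3 and replicate 1 for Saa3.

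Knockout replicate 3 was also the highest knockout for 9 of 10 hepatocyte markers, for 19 of 26 further positive acute phase genes and for 9 of 12 negative ones. It was the highest for 3 of 12 macrophage, 1 of 8 ductular and 0 of 8 stellate cell markers. Its summed hepatocyte level of 66100 CPM compares with 52113 and 53123 CPM in knockout replicates 1 and 2. Alb and Ttr are in both the hepatocyte and the negative lists, and Serpina1a is in both the hepatocyte and the positive lists. These counts and sums are therefore not separate observations. The part of the hepatocyte markers in this order was not tested.

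**Figure D2:**
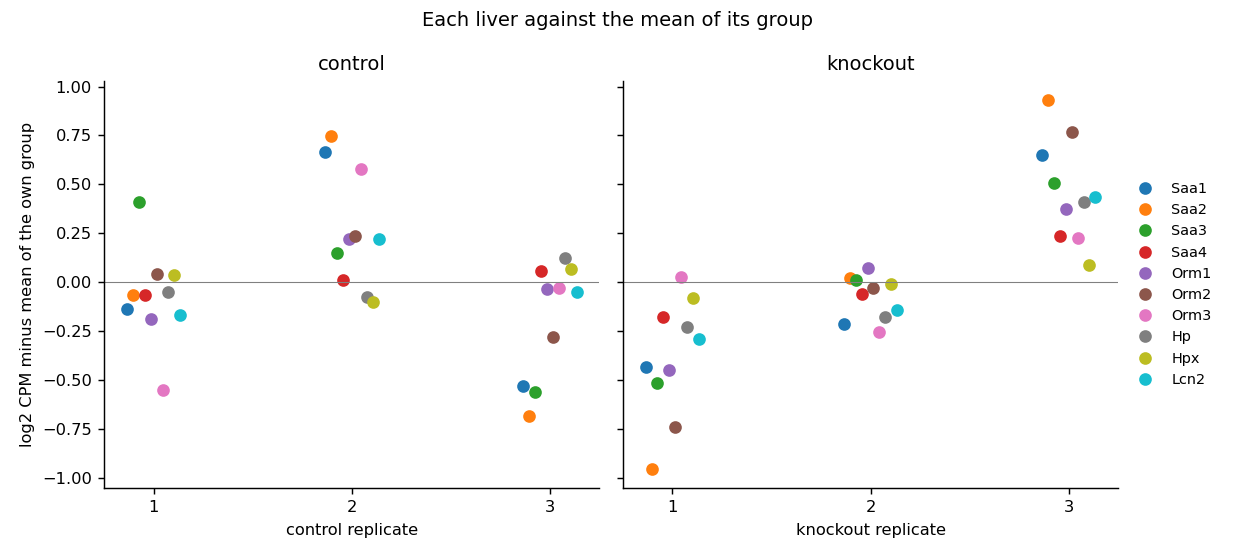
Log2 CPM of each gene in each library minus the mean log2 CPM of its own group, for controls on the left and knockouts on the right. Points are genes, shifted sideways for legibility. All 10 genes lie above 0 in knockout replicate 3, from 0.09 for Hpx to 0.93 for Saa2, and 9 lie below 0 in knockout replicate 1.

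The way libraries were scaled moved all members together. Over all genes, the log2 fold change had a median of 0.05 under TMM factors, 0.41 under library sizes alone and 0.25 in limma on log2(FPKM + 0.5). Relative to that median, Saa4 stood at -1.23, -1.24 and -1.08 in the 3 scalings, Hp at -0.72, -0.72 and -0.59 and Hpx at -0.67, -0.67 and -0.52. On the same relative scale Lcn2 stood at 0.68, 0.68 and 0.80 and Orm2 at 0.91, 0.90 and 0.94. Scaling factors shift all genes by nearly the same amount, so the near-equal values under TMM and library sizes alone follow from subtracting the median. They are no separate evidence of stability.

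**Figure D3:**
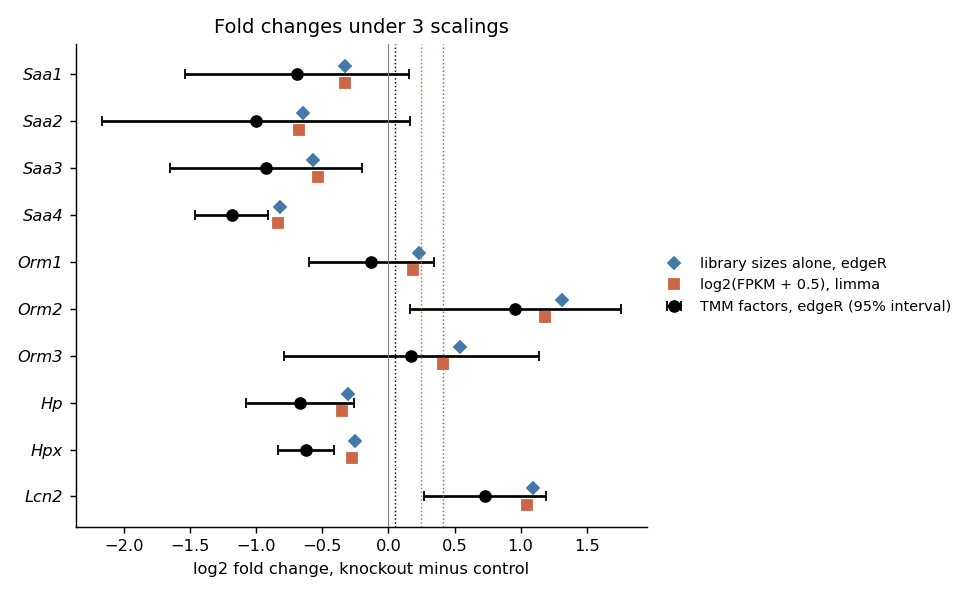
Log2 fold change of knockout against control for the 10 genes with TMM factors (black, with the 95% interval of edgeR), with library sizes alone (blue) and in limma on log2(FPKM + 0.5) (orange). Dotted lines mark the median of all genes in the same colours, at 0.05, 0.41 and 0.25. Saa4 lies left of 0 and Lcn2 right of 0 in each scaling, while Orm1 changes side of 0 but lies left of the dotted line of its own colour in each.

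Of 26 other positive acute phase genes tested, 10 fell, 1 rose and 15 did not pass, beside 18% lower and 19.9% higher of all tested genes. Leaving out knockout replicate 1 gave 2 that rose. Their median log2 fold change was -0.19. With library sizes alone 7 fell and 6 rose, with a median of 0.18. The metallothionein Mt2 fell by 1.55 on the log2 scale, the protease inhibitors Serpina1a and Serpina3m by 0.91 and 1.26, and serum amyloid P (Apcs) by 0.91. Serpina1a and Serpina3m belong to clusters of similar copies, so their single values are uncertain. The endotoxin co-receptor Cd14, which macrophages also express and which was picked once its value was known, rose by 0.84. C-reactive protein (Crp), named in the same way, fell from 299, 318 and 360 to 160, 180 and 223 CPM. Fibrinogen genes, also chosen after their values were seen, did not pass, with log2 fold changes of -0.08 for Fga, -0.17 for Fgb and -0.20 for Fgg.

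Of 12 negative acute phase genes tested, 9 fell, 0 rose and 3 did not pass, beside 18% lower of all tested genes. Their median was -0.66 (7 fell and 0 rose with library sizes alone, with a median of -0.29). In limma on the FPKM the count that fell was 5 with a pseudocount of 0.5, 6 with 1 and 4 with 0.1. With a minimum mean FPKM of 0.5 it was 8, and 0 rose in each of these fits. Corticosteroid-binding globulin (Serpina6) was at 286, 227 and 225 CPM in the controls and 67.4, 64.1 and 56.7 CPM in the knockouts. Paraoxonase 1 (Pon1) fell by 0.81, vitamin D-binding protein (Gc) by 0.70 and coagulation factor F12 by 0.59. Albumin (Alb), picked once its value was known, fell by 0.81.

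Of 16 tested genes of interleukin 6 signalling, 3 rose, 2 fell and 11 did not pass. That is 31.2% called, not above the 37.9% of all tested genes. Leaving out control replicate 2 gave 5 that rose, and the count that fell was 1 without control replicate 1, control replicate 2 or knockout replicate 2 and 0 without knockout replicate 1 or 3. Their median was 0.25. With library sizes alone 9 rose and 0 fell, beside 6459 higher and 1249 lower of 18931 genes. The share called was then above that of all tested genes. The oncostatin M receptor Osmr was at 17.2, 11.5 and 12.1 CPM in the controls and 32.8, 37.0 and 29.5 CPM in the knockouts. The STAT3 inhibitor Pias3 rose by 1.04. The interleukin 6 receptor Il6ra stood at -0.55 (edgeR adjusted p = 0.0232), a call lost with library sizes alone (-0.18, adjusted p = 0.406) and without any single knockout (0.0564 to 0.0759). Osm, the ligand of Osmr, was at 0.0714, 0 and 0.137 CPM in the controls and 0.840, 0.408 and 1.15 CPM in the knockouts, few counts on either side, and its call was lost without control replicate 1 or any single knockout (0.0525 to 0.111). The cytokine Il6 did not reach the filter, at 0.366 CPM or less in every library. Socs3, a STAT3 target and feedback inhibitor picked once its value was known, was at 15.7, 24.3 and 15.4 CPM in the controls and 21.8, 27.0 and 27.0 CPM in the knockouts and did not pass (adjusted p = 0.109).

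Of 22 tested genes of interleukin 1, TNF and NF-kB signalling, 3 rose, 1 fell and 18 did not pass. That is 18.2% called, below the 37.9% of all tested genes. Leaving out control replicate 2 gave 5 that rose, and leaving out knockout replicate 3 gave 2 that fell. Their median was 0.16. With library sizes alone 12 rose and 1 fell, beside 6459 higher and 1249 lower of 18931 genes. The share called was then above that of all tested genes. The cytokines Il1a and Il1b rose by 0.95 and 1.23, and Il1b was at 4.01, 4.15 and 4.004 CPM in the controls and 7.62, 6.47 and 14.4 CPM in the knockouts. Irak3, an inhibitor of the pathway found mainly in macrophages, rose by 0.79, a call lost without knockout replicate 1 (0.0686) or knockout replicate 2 (0.0727). The receptor subunit Il1rap fell by 1.01. These cytokines rose beside the macrophage markers, of which 11 of 12 rose, and the part of those cells was not tested.

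Among 17 transcription factors, 6 fell, 3 rose and 8 did not pass, or 52.9% called beside 37.9% of all tested genes. Their median was -0.30 (4 fell and 5 rose with library sizes alone, with a median of 0.06). Hnf4a, a main regulator of hepatocyte genes, fell by 0.80, and the bile acid receptor Nr1h4 fell by 0.86. The C/EBP family was split. Cebpb was at 162, 171 and 201 CPM in the controls and 74.5, 77.6 and 106 CPM in the knockouts and fell by 1.05. Cebpa and Cebpd, picked once their values were known, stood at -0.54 and 0.64 (edgeR adjusted p = 0.0196 and 0.00804).

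Of 22 tested receptors and clearance genes of these plasma proteins, 4 rose, 5 fell and 13 did not pass. That is 40.9% called, near the 37.9% of all tested genes, so the count says nothing particular to them. The count that fell was 3 without control replicate 1 or knockout replicate 2. Their median was 0.05. With library sizes alone 10 rose and 2 fell, beside 6459 higher and 1249 lower of 18931 genes. The share called was then above that of all tested genes. Slc22a17, a receptor for lipocalin 2, was at 3.59, 2.22 and 2.94 CPM in the controls and 9.15, 9.46 and 11.3 CPM in the knockouts. Lrp1, which takes up haem bound to hemopexin, rose by 0.67. The asialoglycoprotein receptor subunit Asgr1 fell by 0.78 and the ferritin light chain Ftl1 by 0.69. Cd163, the macrophage receptor for haptoglobin with haemoglobin, was picked once its value was known. It was at 18.7, 32.9 and 42.7 CPM in the controls and 33.9, 26.9 and 15.3 CPM in the knockouts and did not pass (adjusted p = 0.540).

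**Figure D4:**
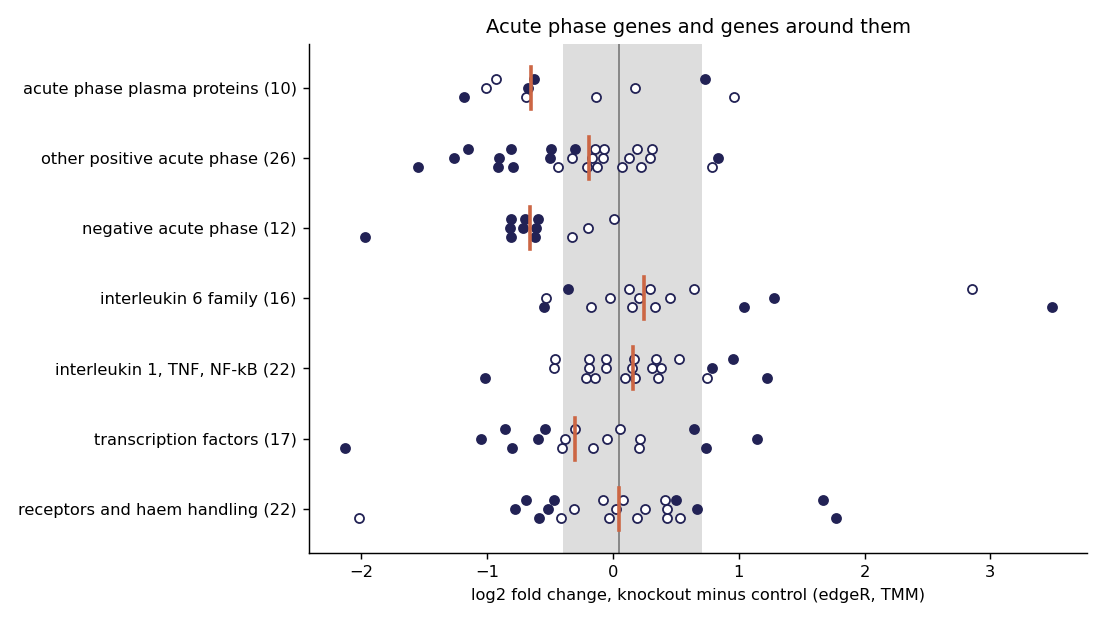
Log2 fold change of knockout against control for the 10 acute phase plasma protein genes and for the tested genes of 6 lists around them, with the number of genes in parentheses. Filled points passed an adjusted p of 0.05 in edgeR, open points did not, orange bars are list medians, the grey line is the median of all tested genes and the grey band holds the middle 50% of them. The medians of the 10 genes and of the negative acute phase genes lie at -0.65 and -0.66.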

How the data were processed

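RNA-seq of 6 mouse livers, 3 per genotype, was analysed from a table with a count and an FPKM value per gene and library. Per the labels' protocols, libraries from poly(A) RNA were strand-marked (dUTP), tagged with unique molecular identifiers and sequenced as pairs of 150 bases. The submitters' processing notes name HISAT2 2.0.4, StringTie 1.3.4d, UMI-tools, cutadapt 1.9, edgeR and DESeq2, with no roles, and build mm9. However, gene positions matched GRCm38: 94.2% of 55141 identifiers shared with GENCODE M21 had the same position there, as had 9 of the 10 genes described here (for Lcn2 the table's interval is printed). Columns named wt were assigned to the genotype without Alb-cre, the only other genotype.

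The deposited counts were taken to be estimated counts, since a count of 4 was in excess among low values: in control replicate 1, 854 genes had a count of 4, 280 a count of 3 and 167 a count of 5. The cause is not given in the sources used here, so a count was not read as a molecule, and no counting intervals are given. FPKM values are those deposited by the authors.

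Counts were fitted in R 4.3.3 with edgeR 4.0.16 (filterByExpr, minimum count 10, minimum total 15, TMM factors, glmQLFit and glmQLFTest, two-sided, Benjamini-Hochberg over 18931 genes, threshold 0.05), with genotype as the only term. The SE comes from the F statistic and the 95% interval from its degrees of freedom. Alternatives were DESeq2 1.42.0, RLE factors, library sizes alone, no count filter, limma 3.58.1 on log2(FPKM + 0.5, 1 or 0.1), a minimum mean FPKM of 0.5, a replicate block and leaving out each library. Data for knockout against control with 18931 genes were simulated in a single draw. In them, edgeR recovered 48% of 2-fold and 68% of 4-fold changes, and 3.33% of its calls were false. DESeq2 recovered 55% and 73%, and 11.11% of its calls were false.

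The 10 genes, the lists and the markers were chosen with earlier results of these data known. Named genes are the 10, Prdx1 and up to 4 genes with the smallest p in each list, and for 4 members the 3 genes most like them. Others are marked, and some genes that this rule would name are not reported here. Promoter windows are from RefSeq, and identities are from global alignment.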

Additional observations from a re-analysis of the deposited data

How the results depend on the processing

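The log2 fold changes of Saa1, Saa2, Saa3, Saa4, Orm2, Hp, Hpx and Lcn2 kept their sign in all 15 alternatives. Orm1 turned to 0.23 with library sizes alone, to 0.19 in each of the 4 limma fits on FPKM and to 0.068 without knockout replicate 1, and Orm3 turned to -0.060 without control replicate 1. Leaving out a library gave -0.32 to 0.068 for Orm1 and -0.060 to 0.51 for Orm3. In place of 1 higher member, 2 were called by DESeq2, in the 4 FPKM fits and with library sizes alone, and leaving out a library gave 0 to 2. In place of 3 lower members, 4 were called by DESeq2 and with RLE factors, and 2 with library sizes alone and with the minimum mean FPKM. In the FPKM with a pseudocount of 0.5, 1 or 0.1, 1 was called, and leaving out a library gave 2 to 5. Over all genes, 3767 were called higher and 3415 lower. With library sizes alone 6459 were higher and 1249 lower. In the FPKM 6671 and 1364 were called with a pseudocount of 0.5, 6650 and 1364 with 1, 6667 and 1362 with 0.1, and 5385 and 1306 with the minimum mean FPKM. Saa3 and Orm2 passed in DESeq2 and not in the main edgeR fit. In the simulated data 11.11% of the calls of DESeq2 were false, against 3.33% for edgeR. The simulation was a single draw in which few genes were changed, so these shares need not hold for the calls made here. With the replicate number as a block, 1 member was higher and 3 were lower, as without it, with 3269 genes higher and 3207 lower. The deviations of same-numbered libraries correlated at 0.02, 0.06 and 0.04 over genes, so the numbers were not taken as pairs, although each library correlated best with its own number. Of the other named genes, 0 changed sign, and F12 missed the threshold with library sizes alone (0.0524) and Gc and Ftl1 in limma on log2(FPKM + 0.5) (0.0515 and 0.0548). Il6ra, Osm and Irak3 missed it in the settings given above. Estimated counts limit what can be said of Orm3.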

Other observations

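Genes outside the 10 whose log2(CPM + 0.5) followed a member most closely over the 6 libraries were looked up among 14903 tested genes, as a description with no test. With so many genes and 6 libraries, high correlations are found for any pattern. For Saa1 the closest was Cpb2, a carboxypeptidase that slows fibrinolysis and is made by the liver (Pearson r = 0.99), followed by Terf2ip and Atxn7l3b (both 0.97). Cpb2 was at 192, 229 and 179 CPM in the controls and 150, 169 and 202 CPM in the knockouts, so replicate 2 was the highest control and replicate 3 the highest knockout, as for Saa1. For Orm1 they included the complement gene C4a (0.98) and AI463229 (0.97). C4a was at 30.4, 43.3 and 31.3 CPM in the controls and 19.6, 35.1 and 48.4 CPM in the knockouts. C4a has a near-identical copy, C4b, so its level is uncertain. For Hp they were the bile acid transporter Slc10a1 (0.995), the metallothionein Mt1 (0.99) and Pdxk (0.99), and these 3 fell by 0.96, 1.15 and 0.76 on the log2 scale. For Lcn2 they were Npas3, Cdkn1b and Dennd2c (all 0.99), and Npas3 was at 0.709 CPM or less in every library.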
